A study of Homo sapiens with 18 samples.

Results

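The 10 genes described here encode peroxiredoxins and the thioredoxin-linked antioxidant enzymes around them: *PRDX1* to *PRDX6*, *TXN*, *TXNRD1*, *SOD1* and *CAT*. They were selected on the readout of *PRDX2*, which was lower with *SOX11* siRNA in each of the 3 lines studied, and the other 9 were set beside it by family and pathway. The rule fixed no minimum size for that decrease. All 10 were found among the 26941 genes named in the count tables, and all 10 passed the filter on low counts in each line.

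Peroxiredoxins are thiol peroxidases that reduce hydrogen peroxide, and most of them are then returned to their active form by thioredoxin (TXN), which thioredoxin reductase (TXNRD1) recharges with electrons from NADPH. Superoxide dismutase (SOD1) makes hydrogen peroxide from superoxide, and catalase (CAT) breaks hydrogen peroxide down without thioredoxin. PRDX1, PRDX2 and PRDX6 are found mainly in the cytosol, PRDX3 in mitochondria and PRDX4 in the endoplasmic reticulum, while PRDX5 is found in several compartments.

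RNA sequencing counts were collected from 3 established lines of acute lymphoblastic leukemia arising from B-cell precursors: REH, which represents the *ETV6-RUNX1* subtype, 697 and RCH-ACV. Each line received either *SOX11*-targeting siRNA or control siRNA at 300 nM by nucleofection and was harvested at 48 h, with 3 samples in each of the 6 groups and 18 in all. The sample labels write KO for the *SOX11* group, although the agent was an siRNA, which lowers an mRNA and leaves the gene intact. The *ETV6-RUNX1* subtype is represented by a single line, so subtype and line cannot be told apart for REH.

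Library totals ranged from 7039594 to 16592492 counts, so that 3 counts correspond to 0.181 to 0.426 CPM (counts scaled to a common library size). *SOX11*, the targeted transcription factor gene, stood at 56.4% of control in REH, 53.1% in 697 and 62.7% in RCH-ACV (adjusted p = 1.45e-08, 0.000221 and 2.46e-06, edgeR's quasi-likelihood F-test adjusted by Benjamini-Hochberg). Of 10 B-cell precursor marker genes, 9 reached 1 CPM in REH and 10 in the other lines. The exception in REH was the pre-B-cell receptor gene *VPREB1* (at most 0.0960 CPM), against 170 to 222 CPM in 697 and RCH-ACV. The summed level of these markers was higher with *SOX11* siRNA in REH, at 5898 to 5951 CPM against 5495 to 5646 CPM in controls. It was lower in 697, at 4477 to 4668 CPM against 5120 to 5436 CPM. In RCH-ACV the groups overlapped, at 3929 to 4704 CPM against 4652 to 4859 CPM. *DNTT* alone gave 1327 to 2920 CPM over the lines, so the sum does not speak for each marker. The part of this sum in the results was not tested. Summed T-cell markers stayed at or under 0.191 CPM, stromal markers at or under 0.130 CPM and erythroid markers at or under 1.80 CPM. Monocyte and granulocyte markers summed to 2.35 to 31.0 CPM, of which *CSF1R* gave 23.2 to 30.4 CPM in RCH-ACV and *MPO* gave 7.49 to 14.9 CPM in REH. Their sum was 14.1 to 15.7 CPM in REH controls and 8.83 to 10.1 CPM with *SOX11* siRNA, without overlap, and its part in the results was not tested either. In these bulk samples fewer cells of a kind and less RNA per cell cannot be told apart.

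The sequence shown first is the 3′ UTR site of *PRDX2* that matches a 7-base word of the *SOX11* mRNA. The word, GTGACGC, was picked in earlier work on these same data by the decrease of genes that carry it. That earlier work is not shown here and was not repeated. Because of that choice, the presence of the word in *PRDX2* adds no support to the decrease of *PRDX2*. In hg19 both copies lie in the 3′ UTR exon of the GENCODE canonical transcript, at chr19:12907692-12907720 on the minus strand (*PRDX2*) and at chr2:5834341-5834369 on the plus strand (*SOX11*), and capitals mark the word, read in the sense of the mRNA.
PRDX2 3′ UTR: gaagctgaataGTGACGCcctcccccaag
SOX11 3′ UTR: gataagatgtcGTGACGCaaagaaattgg
The word starts at base 186 of the 258-base 3′ UTR of *PRDX2* and at base 173 of the 7338-base 3′ UTR of *SOX11*. It occurs in the 3′ UTR of 280 of 19401 genes (1.44%). None of the other 9 genes holds it in its canonical 3′ UTR, which at so low a share is the usual case. Nor do they hold it elsewhere in that transcript, for which no share over all genes was computed. The letters alone do not show a site of action.

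*PRDX2* (NM_005809, chromosome 19 of hg19 from 12907634 to 12912614, 6 exons) encodes a cytosolic peroxiredoxin that is abundant in blood cells. In REH the control samples stood at 125, 132 and 129 CPM and the *SOX11* siRNA samples at 110.0, 112 and 110.1 CPM. In 697 they stood at 287, 300 and 314 CPM against 249, 251 and 232 CPM, and in RCH-ACV at 277, 258 and 255 CPM against 233, 243 and 230 CPM. No *SOX11* siRNA sample reached its line's controls. The gene was chosen for being lower in every line, so this separation is no independent support. The mean levels with *SOX11* siRNA were 86.1%, 81.2% and 89.4% of control. The log2 fold changes were -0.22 (SE 0.044) in REH, -0.30 (SE 0.053) in 697 and -0.16 (SE 0.045) in RCH-ACV, given as a description without a test.

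*TXNRD1* (NM_001261445, chromosome 12 of hg19 from 104609557 to 104744085, 17 exons) encodes the cytosolic thioredoxin reductase, a selenoprotein that keeps thioredoxin reduced. It was lower with *SOX11* siRNA in 697 and in RCH-ACV, and it was the one gene among the other 9 to pass the test in any line. In REH its controls stood at 446, 448 and 433 CPM and the *SOX11* siRNA samples at 399, 414 and 416 CPM. In 697 the controls were at 529, 501 and 472 CPM and the *SOX11* siRNA samples at 400, 406 and 420 CPM. In RCH-ACV they were at 707, 707 and 727 CPM against 597, 606 and 635 CPM. The groups did not overlap in any of the lines, and the gap between them was narrowest in REH. The log2 fold change was -0.11 (SE 0.033) in REH, which missed the threshold of 0.05 (adjusted p = 0.0505), -0.29 (SE 0.050) in 697 (adjusted p = 0.0326) and -0.22 (SE 0.037) in RCH-ACV (adjusted p = 0.0014, edgeR's quasi-likelihood F-test adjusted by Benjamini-Hochberg). As levels these are 92.5%, 81.7% and 85.8% of control.

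**Figure D1:**
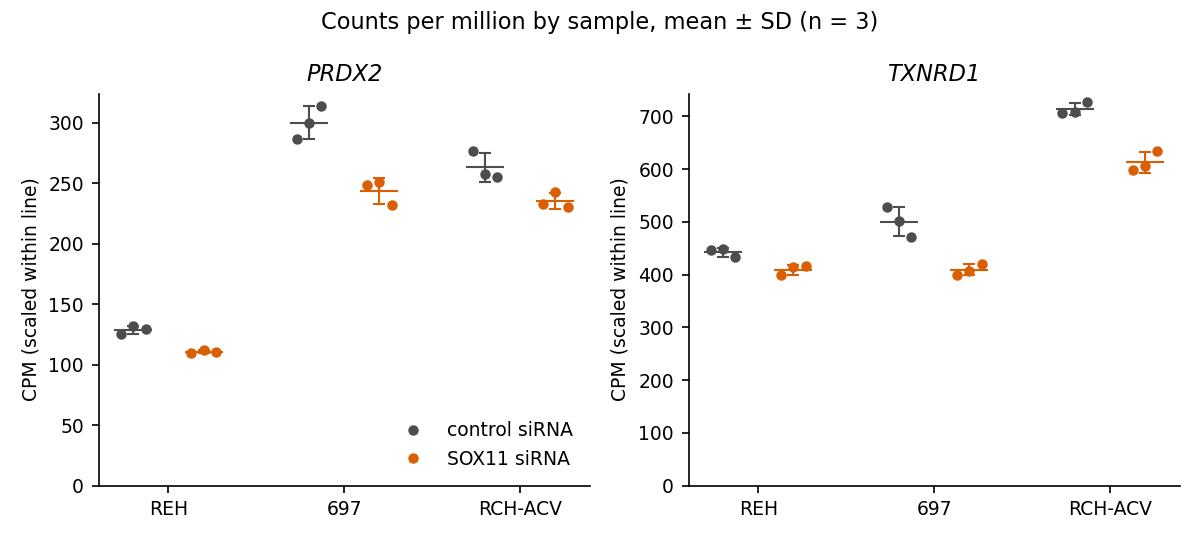
CPM, scaled within each line, of *PRDX2* (left) and *TXNRD1* (right) in every sample, with points for samples and bars for the mean ± SD of 3 samples, grey for control siRNA and orange for *SOX11* siRNA. *PRDX2* sits at 110 to 132 CPM in REH and at 230 to 314 CPM in the other lines, and for both genes every orange point lies below the grey points of its line.

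The call of *TXNRD1* in 697 was lost with the replicate number as a block (adjusted p = 0.173) and in 3 of the 6 fits that left out 1 of its samples, those without control siRNA replicate 2, *SOX11* siRNA replicate 1 and *SOX11* siRNA replicate 2, where the log2 fold changes were -0.29, -0.28 and -0.28. Over the 6 fits it ran from -0.33 to -0.24. Its call in RCH-ACV held in all 6 such fits, with log2 fold changes from -0.25 to -0.20. The size of the change did not pass a test of difference between the lines (adjusted p = 0.449, interaction term over the 18 samples in edgeR's quasi-likelihood F-test).

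The share of all genes called gives the background for these counts. In REH 2.64% of 12787 tested genes were called higher and 2.01% lower, and none of the 9 genes was called, while 2 had an unadjusted p under 0.05 in edgeR's quasi-likelihood F-test. In 697 0.0822% of 12169 genes were called higher and 0.477% lower, against 1 of the 9, lower. In RCH-ACV 3.59% of 12963 genes were called higher and 3.92% lower, against 1 of the 9, lower. DESeq2 also called 0 of the 9 in REH. The median log2 fold change of the 9 was -0.02 in REH, -0.01 in 697 and -0.03 in RCH-ACV, beside -0.0022, -0.0038 and 0.0049 over all tested genes.

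Counted by samples that do not overlap, 3 of the 9 lay below control in REH (*PRDX4*, *PRDX6* and *TXNRD1*), where 10.6% of all genes did so and 10.9% lay above. In 697 *TXNRD1* alone lay below, beside 7.81% of all genes below and 6.15% above. In RCH-ACV *PRDX4*, *TXNRD1* and *CAT* lay below and *PRDX5* above, beside 13.9% and 12.2% of all genes. Below control in each of the 3 lines were 1.24% of 11310 genes, and *TXNRD1* was the one such gene among the 9.

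A fit over the 18 samples with line as a covariate and 1 common siRNA effect was added after the data were seen. In it *TXNRD1* fell by 0.21 on the log2 scale (SE 0.029, adjusted p = 1.96e-05), and it was again the only one of the 9 to pass, where 3.31% of 14026 genes were called higher and 4.83% lower. *PRDX2* stood at -0.23 (SE 0.028) in the same fit, without a test. *PRDX4* followed at -0.09 (SE 0.039, adjusted p = 0.153) and *PRDX5* at 0.06 (SE 0.032, adjusted p = 0.249), and the other 6 lay between -0.03 and 0.03 (adjusted p from 0.520 to 0.992, edgeR's quasi-likelihood F-test adjusted by Benjamini-Hochberg).

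**Figure D2:**
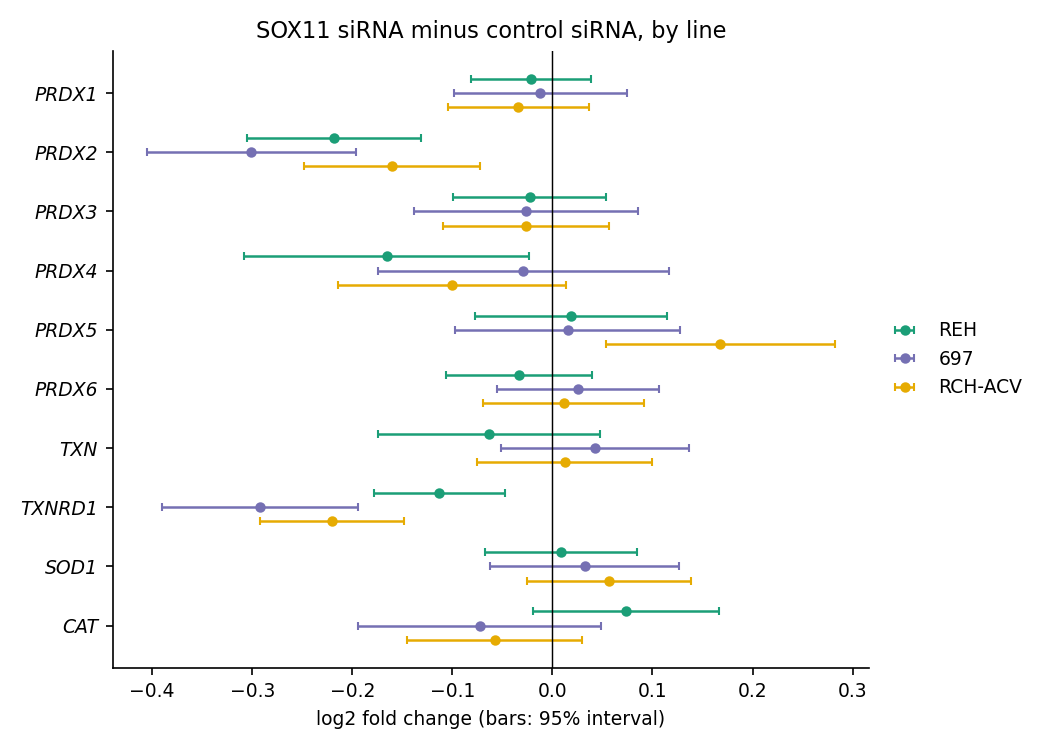
log2 fold change of each gene, *SOX11* siRNA minus control siRNA, by line (green REH, purple 697, yellow RCH-ACV), with bars for approximate 95% intervals from the standard error and a vertical line at 0. *PRDX2*, the gene used for the choice, and *TXNRD1* lie left of 0 in every line, from -0.30 to -0.11, whereas *PRDX1*, *PRDX3*, *PRDX6* and *SOD1* lie within 0.06 of 0.

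*PRDX1* (NM_001202431, chromosome 1 of hg19 from 45976586 to 46008404) encodes the cytosolic peroxiredoxin closest to PRDX2 in mechanism. It had 1012 to 1046 CPM in REH controls and 985 to 1053 CPM with *SOX11* siRNA, 1009 to 1104 and 1017 to 1063 CPM in 697, and 1768 to 1913 and 1743 to 1846 CPM in RCH-ACV. The groups overlapped in all 3 lines. Its log2 fold changes were -0.02, -0.01 and -0.03 (adjusted p = 0.794, 0.983 and 0.627, edgeR's quasi-likelihood F-test). The lowest bound of its approximate 95% intervals was -0.104, in RCH-ACV.

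*PRDX3* (NM_006793, chromosome 10 of hg19 from 120927232 to 120938324), the mitochondrial peroxiredoxin, likewise had overlapping groups in every line, with controls at 243 to 266 CPM and *SOX11* siRNA samples at 228 to 257 CPM over the lines. Its log2 fold change was -0.02 in REH and -0.03 in 697 and RCH-ACV (adjusted p = 0.836, 0.972 and 0.763, edgeR's quasi-likelihood F-test).

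*PRDX4* (NM_006406, chromosome X of hg19 from 23682379 to 23704514) encodes the peroxiredoxin of the endoplasmic reticulum, where it takes part in disulfide formation. In REH the controls were at 35.9, 36.5 and 41.3 CPM and the *SOX11* siRNA samples at 32.9, 33.5 and 34.1 CPM. In 697 they were at 75.7, 69.2 and 80.6 CPM against 70.0, 77.7 and 73.4 CPM, and in RCH-ACV at 63.7, 63.9 and 66.04 CPM against 60.5, 58.5 and 62.2 CPM. The groups overlapped in 697 only. Its log2 fold changes were -0.17 (SE 0.073), -0.03 (SE 0.074) and -0.10 (SE 0.058), and none passed the test (adjusted p = 0.233, 0.974 and 0.327, edgeR's quasi-likelihood F-test). It was the least abundant of the 10 genes in counts, and its standard error was the largest of the 9 in REH and in 697.

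*PRDX5* (NM_012094, chromosome 11 of hg19 from 64085593 to 64089283), an atypical peroxiredoxin, went the other way in RCH-ACV, at 72.4, 71.2 and 67.1 CPM in controls and 81.0, 80.9 and 74.4 CPM with *SOX11* siRNA. The groups did not overlap there, but the log2 fold change of 0.17 (SE 0.058) did not pass the test (adjusted p = 0.0938, edgeR's quasi-likelihood F-test). It passed only when *SOX11* siRNA replicate 3 was left out (0.20, adjusted p = 0.00951). In REH and 697 the groups overlapped at 83.2 to 87.8 CPM and 94.9 to 102 CPM, with log2 fold changes of 0.02 in each. The difference in effect between the lines did not pass (adjusted p = 0.564, interaction term).

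*PRDX6* (NM_004905, chromosome 1 of hg19 from 173446469 to 173457954), a peroxiredoxin that is reduced by glutathione in place of thioredoxin, lay close to its control level in each line. Its *SOX11* siRNA samples were at 206, 206 and 202 CPM in REH against controls at 210.5, 209.5 and 208 CPM, a small gap without overlap. In 697 and RCH-ACV the groups overlapped, at 405 to 426 CPM and 273 to 288 CPM. The log2 fold changes were -0.03, 0.03 and 0.01 (adjusted p = 0.721, 0.964 and 0.907, edgeR's quasi-likelihood F-test).

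*TXN* (NM_003329, chromosome 9 of hg19 from 113006090 to 113018787) encodes the small redox protein that passes electrons from TXNRD1 to the peroxiredoxins. Its controls were at 57.7 to 59.4 CPM in REH, 239 to 253 CPM in 697 and 192 to 207 CPM in RCH-ACV. Its *SOX11* siRNA samples were at 54.0 to 57.8, 247 to 262 and 198 to 205 CPM, overlapping the controls in each line. The log2 fold changes were -0.06, 0.04 and 0.01 (adjusted p = 0.634, 0.925 and 0.908, edgeR's quasi-likelihood F-test). In 697, where *TXNRD1* fell by 0.29, the approximate 95% interval of *TXN* ran from -0.05 to 0.14.

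The enzymes outside the thioredoxin system also missed the threshold. *SOD1* (NM_000454, chromosome 21 of hg19 from 33031979 to 33041244) showed small shifts on the log2 scale, of 0.01, 0.03 and 0.06 (adjusted p = 0.948, 0.959 and 0.456, edgeR's quasi-likelihood F-test), with overlapping groups in each line at 208 to 283 CPM. *CAT* (NM_001752, chromosome 11 of hg19 from 34460481 to 34493607) stood at 0.07 in REH, -0.07 in 697 and -0.06 in RCH-ACV (adjusted p = 0.477, 0.874 and 0.482), with overlap in REH and 697. In RCH-ACV its *SOX11* siRNA samples, at 149 to 154.6 CPM, lay just below the controls at 154.8 to 160.1 CPM. None of the 9 genes, by edgeR or by DESeq2, passed the test of a difference in siRNA effect between the lines, for which 0.734% of 14026 genes did (1 of the 9 at an unadjusted p under 0.05, adjusted p from 0.449 to 1, edgeR's quasi-likelihood F-test adjusted by Benjamini-Hochberg).

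Larger differences were found between the lines themselves. These were measured in the 9 control siRNA samples, a contrast that the choice of genes did not use. Each line was sampled as its own set of cultures, so line and culture or sequencing batch cannot be told apart. For levels that can be set beside one another, counts were divided by transcript length (RPKM, which is CPM per kilobase of transcript). On that scale *PRDX1* was the highest of the 10 in each line, at 1051 ± 16.7 RPKM in REH, 1150 ± 74.8 in 697 and 1944 ± 75.2 in RCH-ACV (SD, n = 3), and made up 51.0%, 39.3% and 55.2% of the summed level of the 10. The lowest was *PRDX4* in REH and RCH-ACV (38.1 ± 2.87 and 67.4 ± 1.39 RPKM) and *CAT* in 697 (56.3 ± 2.75 RPKM). Highest and lowest were apart by 27.6-fold in REH, 20.4-fold in 697 and 28.9-fold in RCH-ACV.

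Below *PRDX1* the order differed between the lines. In REH it ran from *SOD1* (232 ± 8.95 RPKM) over *PRDX3* (158 ± 6.70), *PRDX2* (134 ± 3.52), *PRDX6* (119 ± 0.911), *TXNRD1* (110.4 ± 2.45), *PRDX5* (95.3 ± 2.46) and *TXN* (76.4 ± 1.13) to *CAT* (47.3 ± 2.32). In 697 it ran from *TXN* (348 ± 14.5) and *PRDX2* (338 ± 11.7), which did not differ beyond their SDs, over *SOD1* (274 ± 5.13), *PRDX6* (254 ± 2.83), *PRDX3* (168 ± 8.08), *TXNRD1* (135 ± 9.30) and *PRDX5* (120.0 ± 2.88) to *PRDX4* (81.9 ± 6.43). In RCH-ACV it ran from *SOD1* (296 ± 5.62), *PRDX2* (284 ± 13.0) and *TXN* (269 ± 10.2), neighbours whose SDs touch, over *TXNRD1* (184 ± 3.07), *PRDX6* (164 ± 2.86) and *PRDX3* (162 ± 5.88), of which the last pair also touch, to *PRDX5* (81.5 ± 3.19) and *CAT* (68.7 ± 1.16), which itself touches *PRDX4*. *TXN* thus held the second place in 697 and the eighth in REH.

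**Figure D3:**
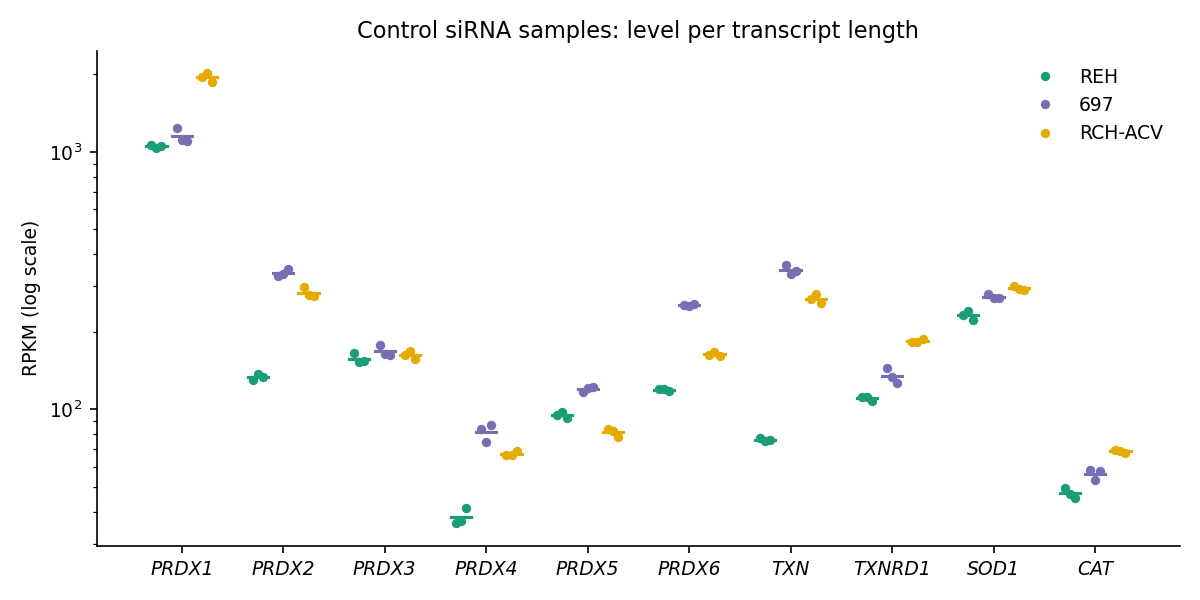
RPKM on a log scale of each gene in the 3 control siRNA samples of each line (green REH, purple 697, yellow RCH-ACV), with points for samples and a dash for the mean. *PRDX1* lies highest throughout at 1051 to 1944 RPKM, *TXN* and *PRDX2* lie lower in REH than in the other lines, and the lines nearly coincide for *PRDX3*.

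*TXN* varied most between the lines, by 4.55-fold between 697 and REH. In REH minus 697 its log2 difference was -2.20 (SE 0.052, adjusted p = 2.78e-17) and in REH minus RCH-ACV -1.83 (SE 0.052, adjusted p = 5.52e-16, edgeR's quasi-likelihood F-test adjusted by Benjamini-Hochberg). *PRDX2* came next at 2.52-fold, with REH lower than 697 by a log2 difference of -1.34 (SE 0.048, adjusted p = 1.2e-14) and lower than RCH-ACV by -1.10 (SE 0.048, adjusted p = 3.44e-13). These differences are larger than the siRNA effect on *PRDX2* in any line. *PRDX4* and *PRDX6* also spanned over 1 on the log2 scale between REH and 697, at -1.12 (SE 0.072) and -1.10 (SE 0.039), with adjusted p = 7.55e-11 and 9.31e-15.

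Against 697, REH was lower for 9 of the 10 genes and higher for none, where 36.9% of 13686 tested genes were lower and 39.3% higher. Against RCH-ACV, REH was lower for 8 and higher for 1, *PRDX5* (0.22, SE 0.055, adjusted p = 0.00182, edgeR's quasi-likelihood F-test), where 37.6% of genes were lower and 36.1% higher. The median difference of the 10 was -0.32 in REH minus 697 and -0.65 in REH minus RCH-ACV, beside 0.02 and -0.01 over all tested genes. Dividing by library size alone moved the median of all genes by 0.13 in REH minus 697, and on that scale *PRDX1* lost its call there (-0.0047, adjusted p = 0.919).

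Between 697 and RCH-ACV the genes went both ways. *PRDX6* (0.63, SE 0.038), *PRDX5* (0.56, SE 0.055), *TXN* (0.37, SE 0.047), *PRDX4* (0.28, SE 0.069) and *PRDX2* (0.25, SE 0.046) were higher in 697 on the log2 scale (largest adjusted p = 0.00173, edgeR's quasi-likelihood F-test). *PRDX1* (-0.76, SE 0.043), *TXNRD1* (-0.45, SE 0.044), *CAT* (-0.29, SE 0.053) and *SOD1* (-0.11, SE 0.043) were higher in RCH-ACV, of which *SOD1* passed least clearly (adjusted p = 0.0283) and was lost in DESeq2 (adjusted p = 0.0587). The *SOD1* call held in 5 of the 9 fits that left out 1 control sample and was lost without 697 replicate 2 or 3 or RCH-ACV replicate 1 or 2, with log2 differences from -0.13 to -0.10 over the 9 fits. The 5 higher and 4 lower genes compare with 30.9% and 33.3% of all genes. RCH-ACV had the highest *PRDX1* (-0.90, SE 0.043, in REH minus RCH-ACV) and the lowest *PRDX5* of the 3 lines, and both genes passed the test against each of the other lines.

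*PRDX3* had the narrowest range of the 10 between lines, 1.07-fold, and was not called in any pair in the fits of all 9 controls (adjusted p = 0.0552, 0.308 and 0.380). Its log2 differences were -0.11 (SE 0.048) in REH minus 697, -0.06 (SE 0.048) in REH minus RCH-ACV and 0.05 (SE 0.049) in 697 minus RCH-ACV, and each changed sign when library size alone was used. In REH minus 697 it passed in 3 of the 9 fits that left out 1 control sample, without REH replicate 1 (-0.14, adjusted p = 0.0265), 697 replicate 2 (-0.12, adjusted p = 0.0469) and 697 replicate 3 (-0.13, adjusted p = 0.035, edgeR's quasi-likelihood F-test). *SOD1* had a 1.27-fold range, *CAT* 1.45-fold, *PRDX5* 1.47-fold, *TXNRD1* 1.67-fold, *PRDX1* 1.85-fold, *PRDX6* 2.13-fold and *PRDX4* 2.15-fold. Together the 10 genes took 0.246% to 0.261% of all counts in REH, 0.311% to 0.333% in 697 and 0.387% to 0.416% in RCH-ACV.

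**Figure D4:**
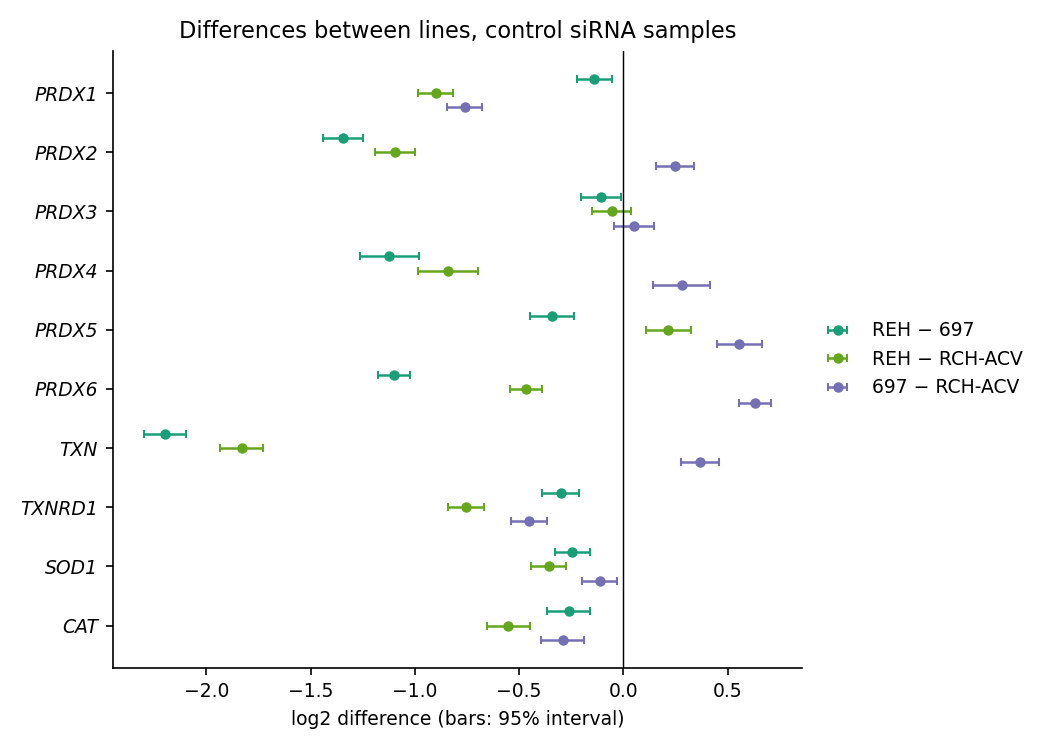
log2 difference of each gene between pairs of lines in the control siRNA samples (green REH minus 697, light green REH minus RCH-ACV, purple 697 minus RCH-ACV), with bars for approximate 95% intervals and a vertical line at 0. *TXN* reaches -2.20 and *PRDX2* -1.34 on the REH minus 697 axis, while the 3 values of *PRDX3* stay between -0.11 and 0.05.

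In the 9 *SOX11* siRNA samples, fitted apart, the same line differences were measured without sharing a sample with the controls. *TXN* stood at -2.30 and *PRDX2* at -1.26 in REH minus 697, and at -1.90 and -1.15 in REH minus RCH-ACV. *CAT* in REH minus 697 (-0.11, adjusted p = 0.0817) and *PRDX5* in REH minus RCH-ACV (0.08, adjusted p = 0.220, edgeR's quasi-likelihood F-test) lost their calls there. The *PRDX2* difference of 697 minus RCH-ACV was 0.25 in the controls and 0.11 in the *SOX11* siRNA samples. These samples hold the decrease that chose *PRDX2*, so its values in them are a description without a test.

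Around these genes, partners of the thioredoxin system, glutathione genes, other superoxide genes, NRF2-linked genes and genes of oxidative folding in the endoplasmic reticulum were tested for the siRNA effect. No listed gene was called higher in any line. Of the 16, 14 and 15 tested thioredoxin partners, which include the thioredoxin inhibitor *TXNIP* and the mitochondrial *TXN2* and *TXNRD2*, edgeR and DESeq2 each called 0 in REH, 697 and RCH-ACV, with 2, 1 and 1 at an unadjusted p under 0.05 in edgeR. Of the 3 other superoxide genes both tools called 0 in any line, and 0 had an unadjusted p under 0.05. The edgeR fits called 1 of 14 NRF2-linked genes in REH, where 2.01% of all genes were called lower, and 3 of 17 glutathione genes and 1 of 8 folding genes in RCH-ACV, where 3.92% were called lower. In 697 both tools called 0 in these lists, with 1 gene at an unadjusted p under 0.05 in each of the 3 lists. The remaining pairs of list and line also had 0 calls by both tools, with 1 of 16 glutathione genes and 3 of 8 folding genes in REH and 2 of 14 NRF2-linked genes in RCH-ACV at an unadjusted p under 0.05.

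The NRF2-linked gene was *FTL*, which encodes the ferritin light chain that stores iron, at 82.3% of control in REH (log2 fold change -0.28, SE 0.041, adjusted p = 0.000111), against 89.4% in 697 and 98.8% in RCH-ACV. The glutathione genes were 3 glutaredoxins, small enzymes that reduce disulfides with glutathione: *GLRX* (-0.26, SE 0.054, adjusted p = 0.00627), *GLRX5*, which works in mitochondrial iron-sulfur cluster assembly (-0.25, SE 0.047, adjusted p = 0.00341), and *GLRX3* (-0.20, SE 0.048, adjusted p = 0.0155). They stood at 83.3%, 84.1% and 86.8% of control in RCH-ACV, with groups that did not overlap, at 104%, 97.9% and 94.8% in REH, and at 88.1%, 94.5% and 102% in 697. None of them passed for a line-dependent siRNA effect (adjusted p = 0.227, 0.359 and 0.293, interaction term in edgeR). DESeq2 called the same 4 genes. The folding gene was the disulfide isomerase *PDIA6*, which DESeq2 did not call (-0.11, SE 0.032, adjusted p = 0.0446, edgeR's quasi-likelihood F-test throughout). The median of the tested glutathione genes was -0.01 in REH, -0.04 in 697 and -0.14 in RCH-ACV, beside -0.0022, -0.0038 and 0.0049 over all tested genes. In RCH-ACV the medians of the other lists were -0.03 for thioredoxin partners, 0.10 for the superoxide genes, -0.0087 for NRF2-linked genes and -0.07 for folding genes.

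In the fit with 1 common effect, the calls were 1 of 16 thioredoxin partners, 1 of 17 glutathione genes, 1 of 14 NRF2-linked genes, 2 of 8 folding genes and 0 of 3 superoxide genes (0 also by DESeq2 and at an unadjusted p under 0.05), all lower, where 4.83% of all genes were called lower and 3.31% higher. They were *FTL* (-0.15, SE 0.036, adjusted p = 0.00847), *PDIA6* (-0.10, SE 0.022, adjusted p = 0.00408), the sulfhydryl oxidase *QSOX1* (-0.16, SE 0.044, adjusted p = 0.0242), *GLRX5* (-0.12, SE 0.035, adjusted p = 0.0239) and nucleoredoxin, *NXN* (-0.14, SE 0.041, adjusted p = 0.0325, edgeR's quasi-likelihood F-test). The decrease of *TXNRD1* in that fit, -0.21, was larger in size than that of each of the 5. DESeq2 called these 5 and 3 more, *GCLC*, *ABCC1* and *PDIA4*. Neither *QSOX1* nor *NXN* passed in any line fitted by itself. The groups of *QSOX1* overlapped in 697, and those of *NXN* overlapped in REH, where its controls averaged 4.78 CPM, and in RCH-ACV.

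Some listed genes differed more between lines than any of the 10 genes did. The following were chosen after their values were seen. Their CPM were scaled over the 18 samples together, so they differ slightly from CPM scaled within each line. *SRXN1*, whose product sulfiredoxin repairs over-oxidized peroxiredoxins, stood at 16.6 ± 2.85 CPM in RCH-ACV controls (SD, n = 3), at 0 to 0.190 CPM in REH and at 0 in the 3 controls of 697. *SESN3*, a sestrin, ran the other way, from 78.2 ± 2.04 CPM in REH over 36.9 ± 3.28 in 697 to 5.56 ± 0.427 in RCH-ACV. Nucleoredoxin was at 4.61 ± 0.791 CPM in REH, 85.1 ± 1.09 in 697 and 157 ± 4.73 in RCH-ACV. Glutathione reductase (*GSR*), the counterpart of TXNRD1 for glutathione, was at 39.7 ± 1.13, 111 ± 3.68 and 215 ± 2.83 CPM in the same order. The REH minus RCH-ACV log2 differences of *SESN3*, *NXN* and *GSR* were 3.80, -5.06 and -2.45 (adjusted p = 1.35e-16, 2.52e-19 and 8.1e-18, edgeR's quasi-likelihood F-test). *TXN2* and *GPX4*, at 58.3 to 63.0 CPM and 115 to 146 CPM as line means, varied little by comparison.

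Of the 17 tested glutathione genes, 11 were lower and 4 higher in REH than in 697, where 36.9% of all genes were lower and 39.3% higher, and their median difference was -0.41 beside 0.02 over all genes. Against RCH-ACV 12 were lower and 3 higher, where 37.6% of all genes were lower and 36.1% higher, with a median of -0.46 beside -0.01. Of the 8 folding genes 6 were lower and 2 higher against 697, with a median of -0.55, and 5 were lower and 1 higher against RCH-ACV, with a median of -0.65, beside the same shares and medians of all genes. The 16 thioredoxin partners were split, with 5 lower and 7 higher against 697 (median 0.14) and 8 lower and 6 higher against RCH-ACV (median -0.22).

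The genes whose pattern over the 18 samples came nearest to that of *PRDX2* were found by the root-mean-square difference in log2 CPM after the control mean of each line was subtracted. Among 9908 genes that averaged 10 CPM or more these were *MTCH2* (0.054), *LSM14B* (0.055), *ZFAND3* (0.062), *NDST1* (0.062) and *HDLBP* (0.063), where the median gene was at 0.197. Their mean log2 differences between *SOX11* siRNA and control were -0.24, -0.33 and -0.16 for *MTCH2* and -0.19, -0.26 and -0.20 for *LSM14B* in REH, 697 and RCH-ACV. *TXNRD1* took rank 31 by this measure (0.087). *PRDX4* took rank 635 (0.136), and the remaining 7 lay between ranks 2162 and 6093. All of these distances share the same 18 libraries and use the contrast that chose *PRDX2*, so they describe likeness and are no test. Of the 5 nearest genes, *ZFAND3* holds the word GTGACGC in its canonical 3′ UTR and *NDST1* holds it elsewhere in its transcript, while *MTCH2*, *LSM14B* and *HDLBP* do not hold it. The word and these genes were both picked by decreases in these same data, so its presence in them adds no support. For whole transcripts no share over all genes was computed.

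Promoter sequences from RefSeq (GRCh38.p14), spanning 250 bases before to 50 after each start, were found for 7 of the 10 genes: *PRDX2*, *PRDX3*, *PRDX4*, *PRDX5*, *TXN*, *TXNRD1* and *CAT*, in 9 entries. They were read on both strands for the core of the antioxidant response element, TGACNNNGC, to which NRF2 binds, and for AACAAAG and AACAATG, words bound by SOX proteins. The antioxidant core occurs in 13.4% of 35116 promoters of this length and among the 7 genes in those of *TXNRD1* only. These windows lie on the plus strand of chromosome 12 with the core in capitals. The first begins its core 99 bases and the next 8 bases before 1 start of *TXNRD1*, and the last 102 bases before another start, and the core of the latter pair reads on the opposite strand.
TXNRD1 chr12:104215671-104215697: cacgggctaTGACTTCGCtgttgtcac
TXNRD1 chr12:104215762-104215788: cgtccttcgGCTCCGTCAgttcccaca
TXNRD1 chr12:104286921-104286947: tggatttctGCTTTGTCAttctgactc
AACAAAG occurs in 5.20% of promoters and AACAATG in 3.33%, and neither occurs in the 9 entries, those of *PRDX2* and *TXNRD1* included. That says only that these letters are not in these windows.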

How the data were processed

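The authors deposited raw read counts per RefSeq transcript for 3 leukemia lines. Per the labels and the study's methods, reads were checked with FastQC, trimmed, aligned to hg19 with STAR (reads with more than 2 locations dropped) and counted with HOMER. The strand setting of the counting and the RefSeq release are not given in the sources used here. Reads of pseudogenes or of overlapping and antisense genes may therefore be split or added for *PRDX1*, *PRDX2*, *PRDX6*, *TXN* and *SOD1*. Transcript IDs were matched to symbols through a RefSeq gene table (98% of transcripts, 99% of counts), and each gene was represented by its transcript of largest summed count. Positions and lengths are those of the GENCODE v44 annotation on GRCh37, and RPKM used the canonical transcript length, which can differ from that of the counted RefSeq transcript.

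Counts were analysed with edgeR 4.0.16 (R 4.3.3): TMM scaling, filterByExpr, glmQLFit and glmQLFTest, Benjamini-Hochberg adjustment over all tested genes, two-sided, threshold 0.05. The siRNA effect was fitted in each line (a common effect over the 3 lines was added after seeing the data), line differences over the 9 control samples, and the interaction over the 18 samples. CPM were computed from the deposited counts after TMM scaling, within each line for the siRNA comparisons. For RPKM, markers, likeness to *PRDX2* and levels of listed genes between lines, 1 scaling over the 18 samples was used. Standard errors were taken from the log2 fold change and its F statistic. The approximate 95% intervals assume a normal distribution of that error, so with few samples they are somewhat too narrow. DESeq2 1.42.0, other scalings and filters, all transcripts kept apart, a replicate block and the removal of each sample were alternatives. In simulated counts with 200 changed genes (log2 size 1) the fits recovered 98.5% to 100% of them. Of their calls 3.38% to 6.98% were false, above the nominal level in 4 of the 6 comparisons simulated. The changed genes were drawn from the more abundant ones, and every other gene kept 1 mean in all samples. In the real REH minus 697 comparison far more genes were called, 36.9% lower and 39.3% higher. The simulated shares therefore do not carry over to the line differences. The siRNA effects on the 9 genes other than *PRDX2* were smaller than the simulated size, from -0.29 in 697 to 0.17 in RCH-ACV on the log2 scale. Recovery of changes of that size was not tested, so a gene that was not called may still have changed. In every replicate pair the counts differed by more than sampling noise (chi-square per degree of freedom from 1.28 to 4.97). The methods describe the replicates as independent.

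The genes and lists were chosen with earlier results of these data known. Genes named were the 10 members, the listed genes past the threshold in a line (up to 3 per list and line), the 5 genes nearest to *PRDX2* and *SOX11*. Listed genes described for line differences only were chosen after their values were seen.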

Additional observations from a re-analysis of the deposited data

How the results depend on the processing

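Of 243 alternative values of the siRNA effect on single genes, 236 kept direction and side of the threshold, and of 270 for line differences 261 did. Fits that left out 1 sample are not in these counts. Among those, the call of *TXNRD1* in 697 held in 3 of 6, and ranges that crossed 0 are given below. In REH the number of the 9 genes called was 0 and became 1 (*TXNRD1*) with all transcripts kept apart (adjusted p = 0.0414), library size alone (0.0326), no low-count filter (0.0347) and, chosen after seeing the data, robust dispersion estimates (0.0338). Leaving out 1 sample at a time gave 0 to 1 in REH (1 without *SOX11* siRNA replicate 3), 0 to 1 in 697, 1 to 2 in RCH-ACV (2 without *SOX11* siRNA replicate 3, where *PRDX5* was added) and 1 to 2 in the common fit (2 without 697 control siRNA replicate 2).

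Same-numbered samples correlated from -0.247 to 0.265 in their deviations, so the replicate numbers showed no steady pairing. In 697, *SOX11* siRNA and control samples of different numbers correlated from -0.35 to 0.407. The source of these correlations was not tested. With the replicate block the count in 697 was 0 in place of 1.

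Reversed values were small. They were 0.0017 for *PRDX1* in 697 without the low-count filter, -0.0006 for *SOD1* in REH with library size alone, and, for *PRDX3* with library size alone, 0.0286 in REH minus 697, 0.0172 in REH minus RCH-ACV and -0.0114 in 697 minus RCH-ACV. With 1 sample left out the ranges that crossed 0 were, in REH, -0.0471 to 0.0019 for *PRDX1*, -0.0493 to 0.0139 for *PRDX3* and -0.0161 to 0.0338 for *SOD1*. In 697 they were -0.0358 to 0.0397 for *PRDX1*, -0.0591 to 0.0373 for *PRDX3*, -0.0838 to 0.0227 for *PRDX4*, -0.0080 to 0.0332 for *PRDX5* and -0.00065 to 0.0673 for *SOD1*, and in RCH-ACV -0.0140 to 0.0284 for *PRDX6* and -0.0151 to 0.0412 for *TXN*. The cause was not tested.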
